A study of Capra hircus with 6 samples.

Results

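The circular RNAs (circRNAs) described here were counted in pre-ovulatory follicles of 6 goats (Capra hircus), 3 of the Boer breed and 3 Macheng black, with 1 library per animal. Both breeds were given the same hormones: PMSG (1000 IU, from pregnant mares), which makes follicles grow, and hCG (500 IU), the chorionic gonadotropin that induces ovulation; ages and an untreated group are not given in the labels used here. Reads were counted across each back-splice junction, where a downstream end is joined to an upstream start. Of 13950 circRNAs in the 6 libraries, 613 (4.39%) were chosen because their deposited entries list at least 1 intron and no exon, and because their host gene identifier was usable. An identifier was usable when it was alone in the entry, was found on 1 chromosome only and had no listed exon or intron over 1000000 bases. The 613 circRNAs rested on 365 host genes, out of 782 usable hosts, and 357 of these hosts were matched to a symbol. The comparison group was the 1429 circRNAs with a usable host and at least 1 listed exon.

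Different kinds of circRNA are known to carry intron sequence. Circular intronic RNAs are excised introns that escaped debranching and hold no exon, whereas exon-intron circRNAs keep an intron between the exons that a back-splice has joined. The more common exonic circRNAs begin and end at exon borders and lose their introns, so a list of the introns they span does not show what the molecule holds. A circRNA that lies inside 1 intron and a circRNA that runs from exon to exon across an intron are therefore different things, and the coordinates were used first to tell them apart.

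Most of the 613 circRNAs did not lie inside an intron. In 446 of them (72.8%), which held 80.5% of the back-splice reads of the class, both ends lay outside every listed intron, so that the circRNA spanned its introns whole; these are called spanning below. Only 78 (12.7%, 4.23% of the reads) were nested, with both ends inside the same intron. A further 82 (13.4%, 15.1% of the reads) had 1 end inside a listed intron and 1 outside, 3 joined 2 introns, and 4 touched an intron border within 2 bases. Among the 269 circRNAs with a single listed intron, 52.0% were spanning and 29.0% nested.

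The stretches of the spanning circRNAs that no listed part covers were short. The stretch between the circRNA's 5′ end and its first listed intron had a median of 115 bases, and that between the last intron and the 3′ end a median of 119 bases. Of these 892 end stretches, 792 (88.8%) were under 150 bases, and in 353 of the 446 circRNAs both were. The 667 gaps between consecutive listed introns had a median of 99 bases, and 626 of them (93.9%) were under 150 bases. The shortest exon or intron listed for any of the 13950 circRNAs was exactly 150 bases long, and 851 of the 1481 exons listed for usable hosts were under 200 bases. The deposited lists thus hold no part below 150 bases, and the name intron-only holds for the lists and not for the extent of these circRNAs. Whether the unlisted stretches are exons was not tested, since no genome annotation of the build was used here.

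**Figure D1:**
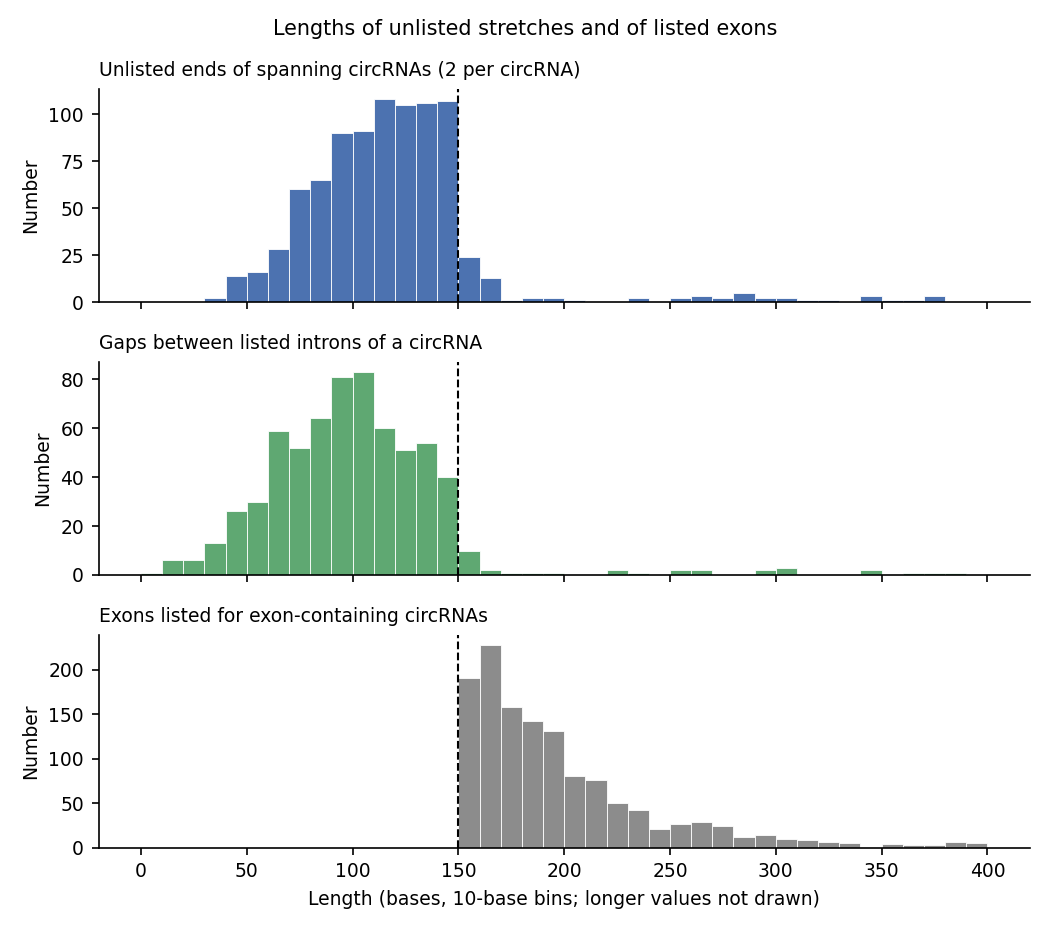
Number of unlisted stretches or listed exons (y axis) by length in bases (x axis, 10-base bins up to 400 bases): top, the end stretches of the 446 spanning circRNAs; middle, the gaps between listed introns; bottom, the exons listed for circRNAs with an exon. The dashed line marks 150 bases, the shortest listed part: 792 of 892 end stretches and 626 of 667 gaps lie below it and no listed exon does.

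SMARCA5, which encodes an ATPase of chromatin remodelling complexes, shows the layout of a spanning circRNA and had the highest mean level of the class. Its circRNA ran from position 14096918 to 14097377 on the minus strand of chromosome 17, 460 bases in all (positions count from 1; the sources used here do not give the genome build). It held a listed intron of 191 bases, with 149 unlisted bases at the 5′ end and 120 at the 3′ end, and so 269 unlisted bases in total. UBL5 encodes a ubiquitin-like protein that takes part in pre-mRNA splicing. Its circRNA, on the plus strand of chromosome 7 from 10965551 to 10965822, was the shortest of those listed in all 6 libraries, with an intron of 150 bases between stretches of 84 and 38 bases. The longest of those listed in all 6 libraries was in FKBP5, a co-chaperone of steroid receptors, at 54709 bases on chromosome 23 (9307102 to 9361810, minus strand). Of its length, 54460 bases were 1 listed intron, between unlisted stretches of 104 and 145 bases.

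The spanning circRNAs listed 1 intron in 140 cases, 2 in 150, 3 in 79 and 4 in 37. A median of 344 bases of a spanning circRNA was unlisted, which was 6.06% of its span. Their median span, end to end on the genome, was 6044.5 bases. That of the nested circRNAs was 651 bases.

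The 78 nested circRNAs lay in long introns. The intron around them had a median length of 12454.5 bases, of which the circRNA took a median of 8.27%. Their midpoints lay at a median of 40.6% of the intron, counted from its 5′ end, and 47 of 78 had the midpoint nearer to the 5′ end. Few were close to a splice site: 8 began within 200 bases of the intron's 5′ end and 4 ended within 200 bases of its 3′ end. Most nested circRNAs were rare, since 68 of 78 (87.2%) were listed in 1 library only and the median read total was 2, the lowest number the files list. The intron of RCBTB2, a gene for a protein with RCC1-type repeats and a BTB domain, was the only one covered from end to end by a circRNA of the border class, at 547 bases with 4 reads in Boer 1. The other 3 circRNAs of that class, in GGNBP2, NCOA4 and LOC102178109, had 3, 2 and 2 reads in 1 library each, so none of the 4 was seen in a second animal.

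Nested circRNAs listed in all 6 libraries were found in FOXN3, a forkhead transcription factor, and HSDL2, a protein with a hydroxysteroid dehydrogenase-like domain. The FOXN3 circRNA spanned 776 bases at 48.3% of an intron of 72369 bases (chromosome 10, 96966304 to 96967079). It had 46, 15 and 32 reads in Boer 1 to 3 and 56, 93 and 9 reads in Macheng black 1 to 3, so the breeds overlapped. Its 251 reads were 47.6% of the 527 reads of all nested circRNAs. The HSDL2 circRNA (chromosome 8, 99773503 to 99775812) had 10, 4 and 11 reads in Boer and 11, 11 and 4 reads in Macheng black. Both were chosen for description after their values were seen.

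The class was made of many rare circRNAs and a few common ones. Of the 613, 383 (62.5%) were listed in 1 library only, with 8.32% of the reads between them. The 54 that all 6 libraries listed accounted for 71.2%. The 10 with the most reads held 38.9% of the 12470 back-splice reads of the class. One or both ends were shared with another listed circRNA in 269 of the 613 (43.9%), against 816 of the 1429 (57.1%) with a listed exon. Shared ends were found in 223 of 446 spanning circRNAs and in 6 of 78 nested ones.

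Each library gave the class about the same share of its reads. In Boer 1 to 3 the class had 279, 142 and 222 circRNAs with 3805, 1174 and 2077 reads. In Macheng black 1 to 3 it had 193, 240 and 155 circRNAs with 1869, 2390 and 1155 reads. As a share of all listed back-splice reads these were 5.09%, 4.72% and 5.00% in Boer and 4.79%, 4.86% and 4.92% in Macheng black. The widest exact (Clopper-Pearson) 95% interval was 4.65% to 5.20%, in Macheng black 3; it covers counting error only, since reads carried no molecular identifiers. The libraries held 23480 to 74796 back-splice reads in all, and those with more reads listed more circRNAs of the class, except that Macheng black 3, with the fewest reads, listed more than Boer 2.

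Within each library the class was then set against the circRNAs with a listed exon, with the library as the unit. The median span was lower in 6 of 6 libraries, at 5725 ± 628 bases against 7164 ± 407 bases (SD, n = 6; exact sign-flip permutation test, two-sided, p = 0.03125, Benjamini-Hochberg adjusted over 4 measures 0.0417). That p is the smallest that 6 libraries allow. A longer circRNA has more room for a listed exon, so the rule that chose the class bears on its span. The part of the rule in this difference was not tested. With spanning circRNAs alone the difference was −596 bases (adjusted p = 0.25 in the same exact test). Among circRNAs of 1000 to 10000 bases, those with introns only were longer, by 424 bases (adjusted p = 0.0417, exact test), so the direction depended on the range of spans compared.

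Listing in a single library was more frequent in the class. The share of a library's circRNAs that no other library listed was 36.9%, 22.5% and 30.2% in Boer and 25.9%, 31.7% and 35.5% in Macheng black. For circRNAs with an exon it was 29.6%, 18.5% and 21.9%, and 22.6%, 24.1% and 15.9%. The class was higher in 6 of 6 libraries, by 8.36 ± 5.88 percentage points (SD, n = 6; exact sign-flip test, two-sided, p = 0.03125, adjusted 0.0417). The difference was 0.97 points among circRNAs with at least 5 reads in the library (adjusted p = 0.417, exact test) and 1.92 points when circRNAs were weighted by their reads (adjusted p = 0.0833, exact test). Nested circRNAs had a share of 66.5 ± 7.77%, and with spanning circRNAs alone the difference was 4.79 points (adjusted p = 0.25, exact test). Because parts were pooled over files, a circRNA listed in more libraries had more chances to show an exon; with each library's own listing the shares were 29.3% against 22.6%, higher in 6 of 6 libraries.

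The median back-splice reads per circRNA were 3.5 ± 0.55 (SD, n = 6) in both classes, lower in 2 libraries, higher in 2 and tied in 2 (exact sign-flip test, two-sided, p = 1).

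The files also count, for each circRNA, reads called non-junction reads, which the sources used here do not define. The back-splice share is used below for the back-splice reads as a percentage of both kinds. Over the 6 libraries pooled, the median back-splice share was 3.64% for the 613 circRNAs and 1.71% for the 1429 with an exon. By library the median was 5.41%, 3.24% and 5.25% in Boer and 3.57%, 3.89% and 3.03% in Macheng black, against 2.94%, 1.68%, 2.04%, 2.0%, 2.08% and 1.57% for circRNAs with an exon, in the same order. It was higher in 6 of 6 libraries, by 2.01 ± 0.69 percentage points (SD, n = 6; exact sign-flip test, two-sided, p = 0.03125, adjusted 0.0417). On summed reads in place of the median, the difference was 0.50 points (adjusted p = 0.0625, exact test), and among circRNAs with at least 5 reads it was 3.36 points (adjusted p = 0.125, exact test). Spanning circRNAs alone were higher in 6 of 6 libraries too, by 1.60 points, with an adjusted p of 0.125 in the exact test.

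**Figure D2:**
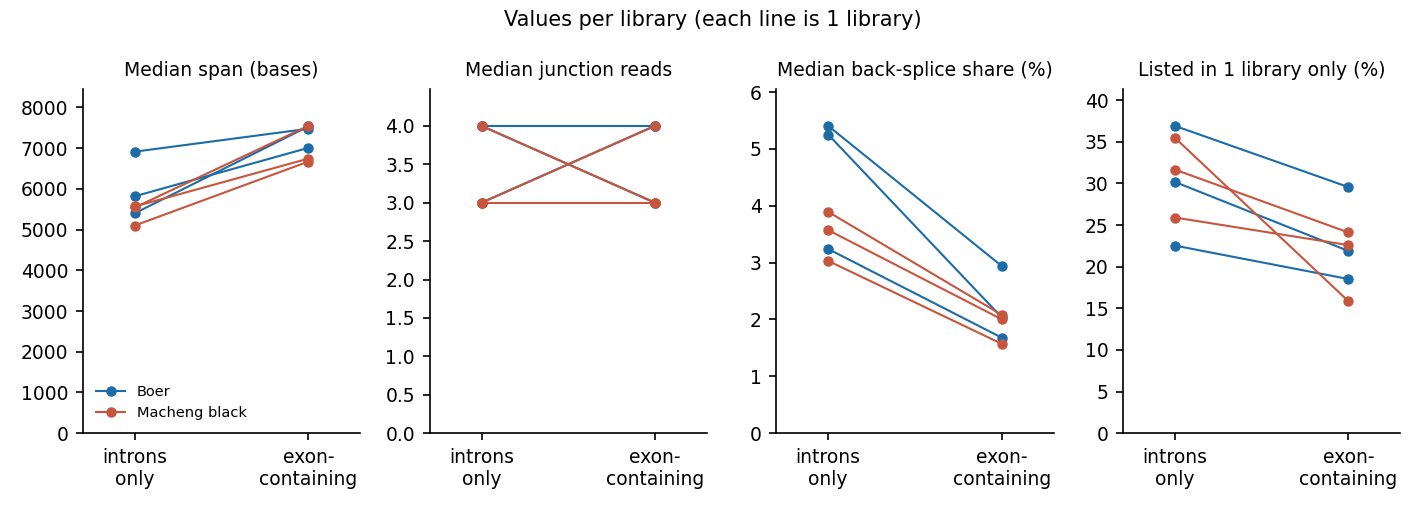
Values per library for circRNAs with listed introns only (left points) and with a listed exon (right points), 1 line per library, blue for Boer and red for Macheng black; the y axes give the median span in bases, the median back-splice reads, the median back-splice share in percent and the percentage listed in 1 library only. All 6 lines rise in the first panel and fall in the third and the fourth; in the second, lines of the breeds cover each other.

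The back-splice share followed the span. Across the 613 circRNAs the rank correlation of span and back-splice share was −0.70 (Spearman, n = 613), and across the 1429 with an exon it was −0.57 (n = 1429). These are descriptions, since the circRNAs share libraries, hosts and introns. Longer circRNAs had more non-junction reads in all (rank correlation 0.72, n = 613), but hardly more per 1000 bases of span (rank correlation 0.14). Below 1000 bases the median share was 28.6% in 87 circRNAs with introns only and 11.9% in 142 with an exon. From 5000 to 20000 bases the medians were 1.97% (252 circRNAs) and 1.04% (704), so the order of the classes was the same at both lengths. Non-junction reads per 1000 bases had a median of 24.8 in the class and 46.4 in circRNAs with an exon. The class was chosen for having no listed exon. Whether non-junction reads fall mainly on exons was not tested, nor was its bearing on the back-splice share.

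**Figure D3:**
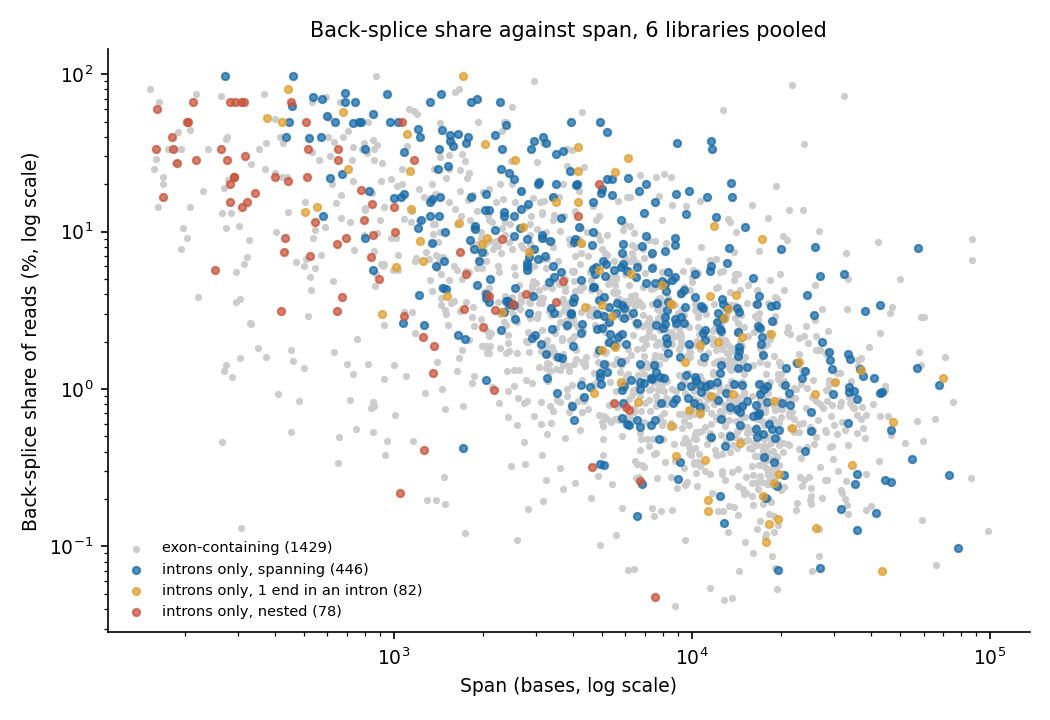
Back-splice share of reads in percent (y axis, log scale) against genomic span in bases (x axis, log scale), 1 point per circRNA with 6 libraries pooled; grey for circRNAs with a listed exon, blue, yellow and red for spanning, 1-end and nested circRNAs of the intron-only class. The share falls as the span grows in each class, and nested circRNAs sit at short spans.

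At the top of this range, back-splice reads outnumbered non-junction reads. SMARCA5 had 1030 back-splice reads and 25 non-junction reads (97.6%), and UBL5 had 682 and 20 (97.2%). HOMER3, a scaffold protein of the Homer family, had 105 and 45 (70.0%). In 27 of the 613 circRNAs (4.40%) back-splice reads outnumbered non-junction reads, against 22 of 1429 (1.54%) with an exon. At the bottom among those listed in all 6 libraries, FKBP5 had 188 back-splice and 52083 non-junction reads (0.360%). PLCB4, a phospholipase C, stood at 0.733% and AP1AR, a regulator of an adaptor protein complex, at 0.770%.

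The host genes of the class were spread thinly. Of 365 hosts, 239 had 1 circRNA with introns only and 57 had 3 or more, and 183 also hosted a circRNA with a listed exon. ARHGAP10, which encodes a GTPase-activating protein, had the most, 14. COL14A1, a collagen associated with fibrils, followed with 9, all spanning, and had none with a listed exon. DOCK1, an activator of the GTPase Rac, had 7, which held 91.6% of the host's back-splice reads. FKBP5 also had 7, with 97.6% of its reads, and KLHL2, a substrate adaptor of a ubiquitin ligase, had 7 and none with an exon. COL12A1, another collagen associated with fibrils, likewise had 7.

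The breeds were compared next, as the design implies: which circRNAs of the follicle differ between Boer and Macheng black goats. None of 6 summary measures of the class differed beyond the spread between libraries (exact permutation tests over 3 against 3 libraries, two-sided, lowest adjusted p = 0.75; the smallest raw p possible is 0.1). The class took 4.94 ± 0.19% of the Boer reads and 4.86 ± 0.065% of the Macheng black reads (SD, n = 3 each, p = 0.5 in that exact test). The number of circRNAs was 214 ± 68.8 and 196 ± 42.6 (exact p = 0.8). The median span was 6046 ± 781 and 5405 ± 263 bases (exact p = 0.3), and the median back-splice share 4.63 ± 1.21% and 3.50 ± 0.44% (exact p = 0.3). The share touching an intron border was 0.119% and 0.45% (exact p = 0.4), from 4 circRNAs in all, and the reads per circRNA were 3.67 and 3.33 (exact p = 1).

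For single circRNAs, edgeR's quasi-likelihood test was fitted over every circRNA that reached 2 reads in at least 3 libraries. Levels are given as CPM, back-splice reads scaled to 1000000 after correction by trimmed means of M-values (TMM). Of the 613, 144 passed this filter: 117 spanning, 23 with 1 end in an intron and 4 nested. At an adjusted p of 0.05, 1 of the 144 differed between breeds, against 0.35% of all 3712 tested circRNAs; it was higher in Boer, as were 0.108% of all tested. At an unadjusted p under 0.05 there were 12 of 144 (8.33%), against 5.23% of all tested. In 24 of 144 (16.7%) the CPM of the breeds did not overlap, against 11.7% of all tested. The 24 include 2 circRNAs listed in Boer alone and 3 in Macheng black alone, which passed the filter only through that breed. The median log2 fold change, Boer over Macheng black, was 0.0054 in the 144 and 0.11 in all tested, and 73 of 144 were higher in Boer, against 54.6% of all tested. DESeq2 called none of the 144, and its calls over all tested circRNAs are not given here.

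The 1 circRNA past the threshold was in ARHGAP10, on the minus strand of chromosome 17 from 10078703 to 10108351. It had 46, 16 and 28 reads in Boer and 4, 4 and 0 in Macheng black. Every Boer library was above every Macheng black library, at 638 ± 83.2 CPM against 66.4 ± 58.7 CPM (SD, n = 3 each). The log2 fold change was 3.10 ± 0.61 (SE; adjusted p = 0.00581, edgeR). The call was kept in 11 of 19 alternatives and the direction in all 19; it was lost with DESeq2 (adjusted p = 0.0756), with at least 5 reads in 3 libraries (0.0682) and with both kinds of reads summed (log2 fold change 1.33). It was also lost without Boer 1 (adjusted p = 0.14) or Boer 2 (0.111), and, with the filter applied again, without Macheng black 2 (0.154) or Macheng black 3 (0.0607).

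ARHGAP10 circRNAs shared their ends. Of the 14, 5 had the start 10078703 and 4 the start 10008477, and 11 were spanning. The unlisted stretch next to a shared end had the same length in each circRNA that used it, 95 bases at 10078703 and 88 at 10008477. A shared end next to the same listed intron fixes this length, so the match is not a separate observation. The start 10040196 of a pair of circRNAs and the end 10040261 of another lay at the borders of a single unlisted stretch of 66 bases. Likewise 10108250, a start, and 10108351, the end of the circRNA past the threshold, enclosed 102 unlisted bases.

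Summed over its circRNAs with introns only, ARHGAP10 had 162, 38 and 71 reads in Boer and 12, 7 and 3 in Macheng black. Of these 293 reads, 98 were of the circRNA past the threshold, so the sum is not separate from that result. The libraries did not overlap, at 1779 ± 562 CPM against 201 ± 110 CPM (SD, n = 3 each), an 8.84-fold difference. The log2 fold change was 3.11 ± 0.42 (SE; adjusted p = 2.19e-06, edgeR over 464 host sums), and the call was kept in 18 of 19 alternatives, all but the sum of back-splice and non-junction reads (adjusted p = 0.425). It was the only 1 of 136 intron-only sums past an adjusted p of 0.05, against 0.431% of all 464 sums. The sum over ARHGAP10's circRNAs with a listed exon was 1199, 312 and 525 reads in Boer and 133, 345 and 118 in Macheng black. In CPM these were 13516 ± 3745 against 5330 ± 1926, without overlap, with a log2 fold change of 1.34 ± 0.43 (SE; adjusted p = 0.168, edgeR).  Whether the 2 sums of ARHGAP10 differed in their fold change was not tested. Level of the host RNA and circularization cannot be told apart, since the counts hold no separate measure of linear RNA. What the non-junction reads hold is not defined in the sources used here.

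Of the other circRNAs with the smallest p, none passed the threshold. Towards Boer, PAWR, a regulator of apoptosis, had 10, 30 and 60 reads against 8, 5 and 5 (chromosome 5, 8725155 to 8758770; adjusted p = 0.0911, edgeR). Boer 1, at 155 CPM, lay within the range of Macheng black. Another ARHGAP10 circRNA, from 10008477 to 10044368, was seen in Boer alone, with 13, 7 and 11 reads (at least 7.95-fold, taking a floor of 3 reads over the group for Macheng black; adjusted p = 0.139, edgeR). For a shorter one, from 10078703 to 10086829, the reads were 26, 8 and 8 against 0, 3 and 3 (adjusted p = 0.741, edgeR). The COL12A1 circRNA (chromosome 9, 1928594 to 1935934) had 9, 2 and 3 reads in Boer and no entry for Macheng black (at least 3.16-fold with that floor; adjusted p = 0.88, edgeR). Counting the circRNA past the threshold, 3 of the 5 with the smallest p on the Boer side were in ARHGAP10. This host also had the most circRNAs of the class, 14, and the pair that starts at 10078703 shares that end. The circRNA from 10008477 and that of COL12A1 passed the filter only through the Boer libraries. Their direction and lack of overlap are therefore not separate support.

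Towards Macheng black, LOC102172654 had 6, 0 and 0 reads in Boer and 7, 7 and 15 in Macheng black (adjusted p = 0.624, edgeR). FAM3A, a cytokine-like protein, had 7, 3 and 5 reads against 15, 14 and 8 (adjusted p = 0.843, edgeR), with every Macheng black library above every Boer library in CPM. Another 3 circRNAs were listed in all 3 Macheng black libraries and in no Boer library. They passed the filter only through the Macheng black libraries, so their direction and lack of overlap are not separate support. They were in KAT2B, a histone acetyltransferase (6, 4 and 3 reads; at least 5.05-fold; adjusted p = 0.827, edgeR), CDK8, a kinase of the Mediator complex (5, 2 and 4; at least 4.59-fold; 0.843), and DCLK2, a doublecortin-like kinase (3, 2 and 3; at least 3.31-fold; 0.88). At these counts a library with 0 reads may hold 1 that the files do not list. In the other direction, 2 circRNAs were listed in all 3 Boer libraries alone, those of ARHGAP10 and COL12A1 above. These likewise passed the filter only through the Boer libraries.

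**Figure D4:**
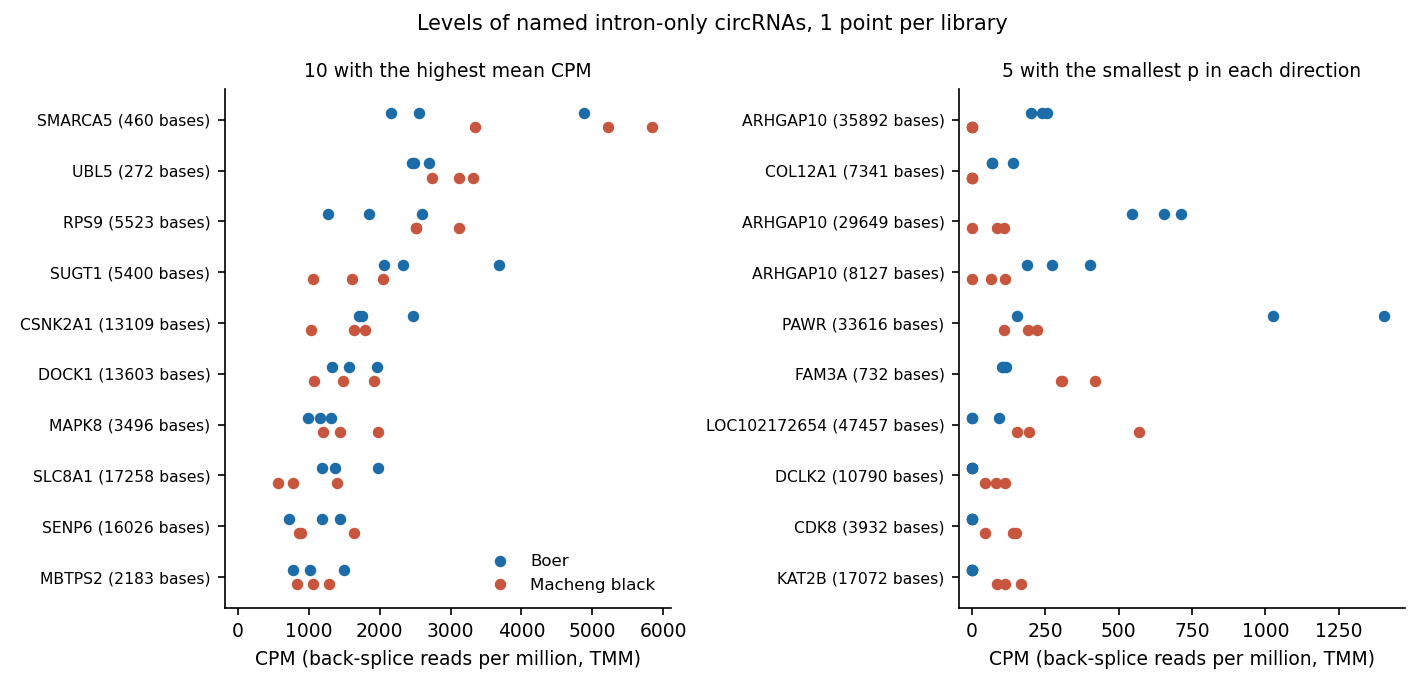
CPM (x axis, back-splice reads after TMM) of circRNAs with listed introns only, 1 point per library, blue for Boer and red for Macheng black; left, the 10 with the highest mean CPM; right, the 5 with the smallest p in each direction, ordered by fold change. In the left panel none passed the test; in the right panel the ARHGAP10 circRNA of 29649 bases did, with Boer at 638 ± 83.2 CPM and Macheng black at 66.4 ± 58.7 CPM.

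The 10 most abundant circRNAs of the class gave no call. SMARCA5 had 316, 63 and 109 reads in Boer and 187, 267 and 88 in Macheng black. That was 3197 ± 1475 CPM against 4801 ± 1295 CPM (SD, n = 3 each), with overlapping libraries. UBL5 had 161, 72 and 115 reads against 119, 143 and 72, at 2548 ± 125 and 3062 ± 295 CPM. The UBL5 libraries of the breeds did not overlap in CPM, but the log2 fold change was −0.27 ± 0.41 (SE; adjusted p = 0.9998, edgeR). SUGT1, a co-chaperone of kinetochore assembly, was the other without overlap, at 2688 ± 868 CPM against 1578 ± 499 CPM (log2 fold change 0.78 ± 0.42, SE; adjusted p = 0.9998, edgeR). The other 7 were in RPS9, a protein of the small ribosomal subunit, the kinases CSNK2A1 and MAPK8, DOCK1, the sodium-calcium exchanger SLC8A1, the SUMO protease SENP6 and MBTPS2, a protease that activates sterol regulatory proteins. Their log2 fold changes ran from −0.52 in RPS9 to 0.71 in SLC8A1.

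Among host sums, CDK8 had 7, 0 and 2 reads in Boer and 11, 19 and 7 in Macheng black, at 49.8 ± 52.0 CPM and 334 ± 64.9 CPM (adjusted p = 0.168, edgeR). FKBP5 had 49, 19 and 46 reads against 54, 83 and 31, at 811 ± 210 and 1519 ± 247 CPM (adjusted p = 0.394, edgeR). In both hosts every Macheng black library was above every Boer library in CPM, and neither passed the test. How many of all 464 sums lacked overlap was not counted. DOCK1, COL14A1, KLHL2 and COL12A1 had adjusted p of 0.965 in edgeR.

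Lists of genes by function held few usable hosts of any circRNA class. Of 50 genes of extracellular matrix and integrins, 7 were usable hosts and 4 had circRNAs with introns only: COL14A1, COL12A1, HSPG2 and COL6A3. Over all usable hosts, 365 of 782 (46.7%) had one. The 18 circRNAs of the matrix genes had 165 reads, 7 were tested and none was called. Of 49 chromatin and histone modifiers, 9 were usable hosts and 6 (SMARCA5, KAT2B, CHD2 and TET2 among them) had 10 circRNAs, of which 3 were tested and none called. Of 40 ubiquitin ligases, 5 were usable hosts, and UBE3A, ITCH and UBE3C had 7 circRNAs, with 2 tested and none called. Of all 3712 tested circRNAs 0.35% were called, so no call among so few does not set these lists apart.

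Genes of gonadotropin signalling, steroid metabolism and the BMP pathway each gave 1 host. Usable hosts numbered 6, 3 and 5 in these lists. NR5A2, a nuclear receptor needed for ovulation, had 2 circRNAs with 19 reads, and it was also the only host from the list of granulosa, theca and oocyte markers. OSBPL8, a lipid transfer protein, had 4 circRNAs with 69 reads. BMPR1B, a BMP receptor of granulosa cells, had 1 circRNA with 2 reads. None of the 21 endothelial and immune marker genes was a usable host. The counts hold no separate measure of the linear RNA of marker genes, so the cell types of the follicles could not be checked. In whole follicles, fewer cells of a type and less RNA per cell cannot be told apart.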

How the data were processed

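Follicle RNA was extracted with TRIzol, rid of ribosomal RNA (Ribo-Zero) and sequenced on Illumina instruments, per the labels' protocols, which name no RNase R step. The submitters' processing notes name TopHat2 and Bowtie2 2.0.6; for caller, genome build and annotation of the circRNAs, nothing was given in the sources used here. Files deposited by the authors give, per library, whole-number counts of back-splice and non-junction reads, not normalized, and other deposited values are lengths in bases. The lowest listed back-splice count was 2, and an unlisted circRNA entered as 0. Replicates are animals by their titles; sample codes number them differently.

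CircRNAs were matched by chromosome, start, end and strand, and their parts and host identifiers pooled over files; 27 of 829 identifiers were set aside, leaving 2042 circRNAs. In 24 of the 613, listed parts differed between files, and 46 of the 2042 had an exon in one file and introns only in another. Members, lists and tests were chosen with earlier results of these data known. Symbols came from RefSeq's gene table for ARS1.2, a goat assembly, with no use of its coordinates.

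Counts were tested with edgeR 4.0.16 in R 4.3.3 (quasi-likelihood, TMM, all listed back-splice reads as library size, Benjamini-Hochberg at 0.05). DESeq2 1.42.0 was an alternative. The edgeR fit was also run on simulated counts of single circRNAs and host sums, with the same dispersion for both, and DESeq2 was not. Recovery and false calls in that run are not given here. Exact permutation tests used scipy 1.17.1. One read was worth 15.5 to 38.1 CPM. Same-numbered animals did not deviate together, and the fit has no block. Named circRNAs were those called, in each direction the 5 of smallest p, the 10 of highest mean CPM, the 5 hosts with most circRNAs, and, among those listed in all 6 libraries, the 3 shortest, longest, highest and lowest in back-splice share (at least 60 reads of both kinds), plus up to 4 hosts per list.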

Additional observations from a re-analysis of the deposited data

How the results depend on the processing

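A border tolerance of 5 bases moved 1 circRNA from the class with 1 end in an intron to the border class, and limiting hosts to parts up to 200000 bases left 604 circRNAs, 442 of them spanning (73.2%) and 74 nested (12.3%); among circRNAs with 1 listed intron, 52.0% were spanning and 29.0% nested. Against circRNAs with an exon, the differences in span, back-splice share and single-library listing kept their direction but had adjusted p above 0.05 in several settings. With means of log2 span or shares of summed reads they were −0.25, 0.50 and 1.92. With at least 5 reads in the library they were −1186, 3.36 and 0.97, and with spanning circRNAs only −596, 1.60 and 4.79. Leaving out 1 library gave −1614 to −1300 bases, 1.77 to 2.12 and 6.10 to 9.37 points, where 5 pairs cannot reach 0.05. In spans of 1000 to 10000 bases the span difference turned to 424 bases.

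Between breeds, differences that were within the spread turned sign: the share counted by circRNAs was −0.38 points, and with at least 5 reads the span was −80.8 bases and the reads per circRNA −0.33. With 1 library left out the number of circRNAs differed by −14.0 (without Boer 1) to 54.5.

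The number of called circRNAs of the class was 0 with DESeq2, 0 with at least 5 reads in 3 libraries, 0 with both kinds of reads summed, 2 without TMM, 2 with a robust prior and 3 without a filter, and 0 to 2 when 1 library was left out, with or without the filter applied again (a setting added after seeing the data, as were spanning circRNAs only and spans of 1000 to 10000 bases). For host sums it was 0 with both kinds of reads summed, 2 without TMM or a filter, and 1 to 2 with a library left out. At the main setting 1 of 144 circRNAs of the class was called, against 0.35% of all 3712 tested. For sums it was 1 of 136, against 0.431% of all 464. Calls over all features in the other settings are not given here. The counts therefore do not show whether a setting changed the class or the whole test. PAWR passed in 6 of 19 alternatives, among them without Boer 1 (log2 fold change 2.82) and without Macheng black 1 (2.53). With both kinds of reads summed, the log2 fold change turned to −0.10 in CSNK2A1, −0.10 in DOCK1, −0.29 in PAWR, −0.41 in the PAWR host sum and 0.11 in UBL5. SENP6 and MBTPS2, near 0, also turned: SENP6 was −0.12 with DESeq2, −0.017 without TMM, −0.058 with at least 5 reads, and MBTPS2 −0.022 with DESeq2. With a library left out SENP6 ran from −0.21 to 0.40, MBTPS2 from −0.21 to 0.26 and DOCK1 from −0.049 to 0.36. With the replicate number as a block, 1 circRNA of the class was called and SENP6 was −0.0088. Correlations of same-numbered animals were 0.00043, −0.047 and 0.023 over circRNAs and 0.0023, 0.034 and −0.088 over host sums. No pairing by number was seen, which 3 animals per breed cannot exclude. The causes were not tested.

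At 3 libraries per breed and 1 read worth up to 38.1 CPM, most of the 613 circRNAs could not be tested, and a missing call does not show equal levels.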
